A study of Mus musculus with 6 samples.

Results

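The Wnt pathway was followed from its secreted ligands to its transcriptional effectors in the heads of E8.5 mouse embryos that lack the histone demethylase Jarid1b. A list of 58 genes was drawn up by pathway role, and a gene was measured where the platform annotation gave a row of the array table that single gene symbol. This held for 57 of the 58, out of 19938 genes on 21789 such rows, and Tcf7, which encodes a nuclear partner of β-catenin, was not analysed here. The 57 genes fall into 9 role classes, among them 19 Wnt ligands, 10 Frizzled receptors and 8 genes of the R-spondin axis. Transcripts were read by probe sets on the Affymetrix mouse Gene ST platform, and 3 pools of 4 heads were measured per genotype. The knockout heads came from Jarid1b-/- embryos, and the control heads came from Jarid1b heterozygotes, which keep a single intact allele, so that no wild-type heads enter the comparison. Both genotypes were C57BL/6 at E8.5 and carried the same constitutive allele, in which exon 6 of Jarid1b, flanked by loxP sites, had been removed through Cmv-cre transgenic mice. All differences below are log2 intensity in knockout pools minus log2 intensity in heterozygote pools, and all p-values come from limma, adjusted where stated by Benjamini-Hochberg over the 21789 rows. They set a difference against the spread between these pools of embryos, with the variance of each row moderated by that of all rows tested. With 3 pools against 3 the smallest p of an exact permutation test is 0.1.

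Wnt proteins are secreted, lipid-modified signals that bind a Frizzled receptor together with an Lrp co-receptor. In the canonical branch this stops a cytoplasmic complex of Axin, Apc and Gsk3 from marking β-catenin for destruction, and β-catenin then joins TCF/LEF proteins at target genes, including genes that feed back on the pathway such as Axin2. In the early head, low Wnt activity is a condition for forebrain and eye formation, while Wnt ligands of the midbrain and the dorsal midline pattern the tissue behind it. Jarid1b removes methyl groups from lysine 4 of histone H3, a mark that in mammals lies mainly at CpG-rich promoters.

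The bases just before the transcription start are therefore shown for 4 members on which the results turn. Wnt3a, Fzd5 and Sfrp5 had an unadjusted p under 0.05 in every alternative analysis that tested them, and Axin2 is the usual readout of the canonical branch. These were 15 alternatives for Fzd5 and Sfrp5 and 14 for Wnt3a, whose dim row was dropped where dim rows were left out. The sequences are from RefSeq on build GRCm38.p6 and run 5′ to 3′ on the strand of the gene, with every CG in capitals. Wnt3a lies on the minus strand (chr11:59290752-59291001), Fzd5 on the minus strand (chr1:64737751-64738000), Sfrp5 on the minus strand (chr19:42202253-42202502) and Axin2 on the plus strand (chr11:108920099-108920348).
Wnt3a: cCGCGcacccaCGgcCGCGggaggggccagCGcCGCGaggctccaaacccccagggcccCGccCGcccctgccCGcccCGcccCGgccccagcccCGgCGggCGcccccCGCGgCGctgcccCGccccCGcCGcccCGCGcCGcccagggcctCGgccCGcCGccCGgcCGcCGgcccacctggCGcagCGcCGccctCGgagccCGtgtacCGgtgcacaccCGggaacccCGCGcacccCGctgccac
Fzd5: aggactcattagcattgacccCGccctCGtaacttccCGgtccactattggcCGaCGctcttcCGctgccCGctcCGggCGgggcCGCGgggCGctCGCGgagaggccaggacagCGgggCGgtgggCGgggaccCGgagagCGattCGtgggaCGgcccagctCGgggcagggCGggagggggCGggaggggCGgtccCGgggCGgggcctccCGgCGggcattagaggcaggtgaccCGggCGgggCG
Sfrp5: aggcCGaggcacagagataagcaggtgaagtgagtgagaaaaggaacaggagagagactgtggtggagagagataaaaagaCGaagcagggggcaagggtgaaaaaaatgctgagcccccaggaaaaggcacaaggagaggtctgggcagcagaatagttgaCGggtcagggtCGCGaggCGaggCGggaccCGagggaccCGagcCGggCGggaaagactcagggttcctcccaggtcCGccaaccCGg
Axin2: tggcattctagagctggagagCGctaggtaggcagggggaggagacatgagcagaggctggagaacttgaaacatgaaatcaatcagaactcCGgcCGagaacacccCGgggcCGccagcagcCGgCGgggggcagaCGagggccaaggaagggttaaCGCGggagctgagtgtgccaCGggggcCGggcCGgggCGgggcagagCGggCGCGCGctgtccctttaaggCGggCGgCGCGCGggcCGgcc

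These windows held 41 CG in Wnt3a, 32 in Fzd5, 24 in Axin2 and 13 in Sfrp5, so a window with many of them stood beside genes on either side of 0 and beside one near 0. RefSeq windows were given for 38 of the 57 members, 47 windows in all. Of these, 32 (68.1%) were CpG-rich, here an observed over expected CpG ratio of at least 0.6 with at least 50% G and C, against 31.0% of all 32841 windows. The latter belong to 27018 genes and were not limited to genes measured on the arrays, and a gene can have several windows. The core letters that TCF/LEF proteins recognise, ATCAAAG or its reverse complement CTTTGAT, were present in 2 of the 47 windows (4.26%), against 3.21% of all windows. Wnt5b and Wnt11 held the 2 matches. A stretch of the Wnt11 window on the plus strand (chr7:98835031-98835097) is printed with the core in capitals.
Wnt11: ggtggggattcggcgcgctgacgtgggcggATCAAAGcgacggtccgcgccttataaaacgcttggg
A match of letters is a description, and no binding was measured on these arrays.

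The targeted gene and markers of head tissue were read first. Kdm5b, the current symbol of Jarid1b, had a log2 intensity of 7.63, 7.47 and 7.71 in knockout pools, against 9.17, 9.12 and 9.16 in heterozygote pools. It fell by 1.55 on the log2 scale (standard error 0.070, limma adjusted p = 6.29e-04), and it was the only row of 21789 that passed the adjusted threshold. The place of its probes relative to exon 6 was not analysed here. All 12 neural ectoderm markers were measured, and Sox2, which marks neural progenitors, stood at 9.25, 9.23 and 9.41 in knockout pools, against 9.21, 9.38 and 9.26 in heterozygote pools. Single pools stood apart in tissues other than neural ectoderm. Summed intensity of 9 primitive blood markers was 2042 in knockout pool 2 and 474 to 736 in the other 5 pools, and that of 10 visceral endoderm markers was 3826 in knockout pool 3 and 7325 to 8641 in the others. All 10 surface ectoderm markers had a negative difference (median -0.13), and their summed intensity was 7207 to 7974 in knockout pools against 8479 to 8594 in heterozygote pools. Dim rows were more often higher and bright rows more often lower in knockout pools: at an unadjusted p under 0.05, 10.5% of the dimmest 7263 rows were higher and 1.57% lower, against 0.716% higher and 6.71% lower of the brightest 7263. How far these features enter the Wnt values was not tested beyond the values given.

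No Wnt pathway member passed the adjusted threshold. The count was 0 of 57, where 0.00459% of all rows passed, and the smallest adjusted p of a member was 0.356 (limma). At an unadjusted p under 0.05, 6 members (10.5%) were higher in knockout pools, where 5.97% of all rows were, and 4 members (7.02%) were lower, where 4.66% of all rows were. Every knockout pool lay above every heterozygote pool for 7 members (12.3%, against 8.03% of all rows), and below for 4 members (7.02%, against 9.03% of all rows). The ranges of the genotypes overlapped for the remaining 46. The differences ran from -0.35 to 0.33 with a median of 0.013, against -0.00072 over all rows, and 31 were positive and 26 negative. For 56 of the 57 members the 95% confidence interval lay within 1.5-fold in either direction, and the exception was Sfrp5. In bulk heads, a smaller number of expressing cells and less RNA per cell cannot be told apart.

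**Figure D1:**
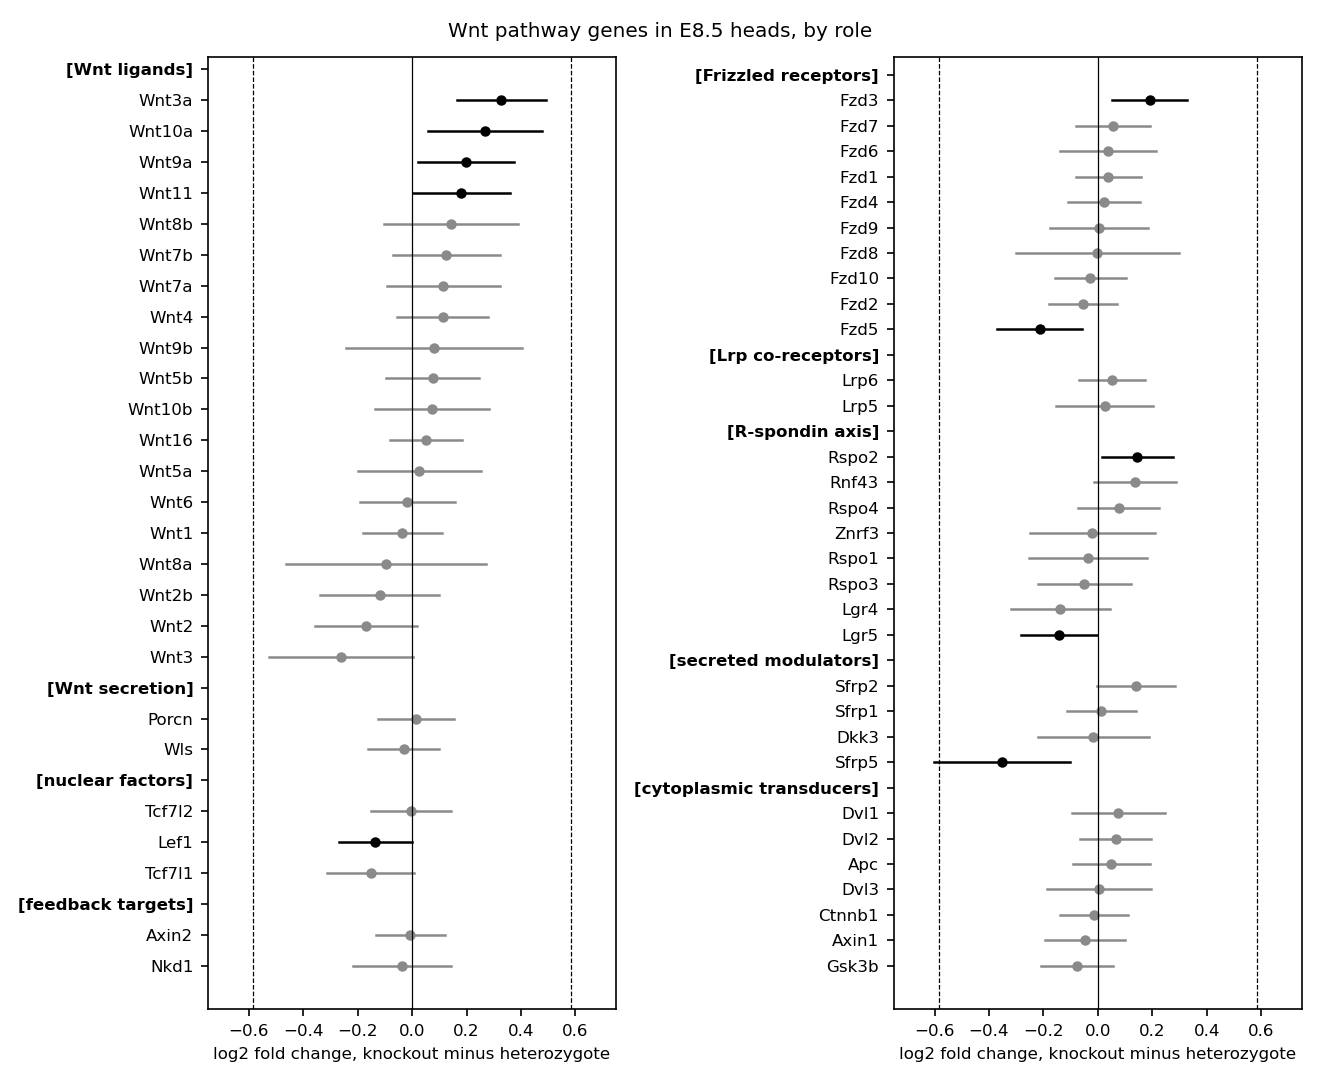
Difference in log2 intensity, knockout minus heterozygote, for the 57 Wnt pathway members ordered by role class, with 95% confidence intervals from limma (3 pools per genotype; black, unadjusted p under 0.05; dashed lines, 1.5-fold). The points lie between -0.35 and 0.33, on both sides of 0 in most classes, and none passed the adjusted threshold.

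Among the 19 Wnt ligands, 13 differences were positive and 6 negative, with a median of 0.076. At an unadjusted p under 0.05, 4 ligands were higher and none was lower, where 5.97% of all rows were higher and 4.66% lower, and none passed after adjustment. No ligand lay among the brightest 7263 rows: 17 lay in the middle 7263 and 2 in the dimmest 7263, and 6.72% of all rows in the middle part and 10.5% in the dimmest part were higher at that threshold. With quantile normalization the counts of ligands became 2 higher and 1 lower, where 4.13% and 3.90% of all rows were. With cyclic loess normalization they were the same, 2 and 1, where 3.85% and 4.57% of all rows were. Without rows under the median intensity, 5 ligands were tested, with 0 higher and 0 lower, where 2.37% and 10.5% of the rows kept were. Wnt3a, Wnt9a, Wnt10a and Wnt11 were among the ligands left out.

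Wnt3a, a canonical ligand of the tail bud and of the dorsal midline of the brain, showed the largest positive difference of the 57 members. Its log2 intensity was 6.11, 5.99 and 6.21 in knockout pools, against 5.83, 5.78 and 5.72 in heterozygote pools. The groups did not overlap, and the lowest knockout pool lay further above the heterozygote pools than these lay apart from each other. The means were 6.11 ± 0.11 in knockout pools and 5.78 ± 0.052 in heterozygote pools (SD, n = 3 each), a difference of 0.33 with a 95% confidence interval from 0.16 to 0.49 (unadjusted p = 0.00176, limma adjusted p = 0.356). The summed intensity of 9 caudal and presomitic mesoderm markers was 532, 535 and 532 in knockout pools against 523, 520 and 519 in heterozygote pools. T, also on that list, was not analysed here. Of the 9, 6 differences were positive and 3 negative, and Fgf8, the brightest of them, differed by -0.070. At an unadjusted p under 0.05, 1 of them, Tbx6, was higher, where 5.97% of all rows were. The part of these markers in the Wnt3a difference was not tested.

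Wnt10a, a canonical ligand needed for teeth and skin appendages, was also higher in every knockout pool, at 5.85, 5.83 and 5.71, against 5.65, 5.59 and 5.34 in heterozygote pools. The difference was 0.27 (standard error 0.090, limma adjusted p = 0.413), and it was 0.17 when heterozygote pool 3, the lowest of the 6, was left out. Wnt11, a ligand of the non-canonical branch, was 6.10, 6.07 and 6.23 in knockout pools, against 5.82, 5.98 and 6.05 in heterozygote pools. Its groups were separated by a narrow gap, and the difference was 0.18 (standard error 0.077, adjusted p = 0.467), or 0.12 without heterozygote pool 1. Wnt9a, which acts in joint and cartilage formation, was 5.75, 5.85 and 5.95 in knockout pools, against 5.75, 5.65 and 5.55 in heterozygote pools. Knockout pool 1 and heterozygote pool 1 lay at the same level, so that the groups touched, and the difference was 0.20 (standard error 0.076, adjusted p = 0.437).

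The largest negative differences of the ligands came from Wnt3 and Wnt2. Wnt3, which is needed for gastrulation in the mouse, was 5.58, 5.41 and 5.47 in knockout pools, against 5.52, 5.99 and 5.73 in heterozygote pools. Heterozygote pool 1 lay within the knockout range, and the difference of -0.26 had an adjusted p of 0.47 (limma). It was -0.14 without heterozygote pool 2, the highest of the 6. Wnt2, known from heart and lung development, was 6.90, 6.86 and 6.96 in knockout pools, against 7.06, 6.94 and 7.23 in heterozygote pools (difference -0.17, adjusted p = 0.501). It overlapped between the genotypes through heterozygote pool 2 alone, and its difference was -0.092 without heterozygote pool 3.

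The ligands best known from the early brain had overlapping groups. Wnt1, which maintains the midbrain and the midbrain-hindbrain boundary, was 7.61, 7.66 and 7.56 in knockout pools, against 7.56, 7.66 and 7.72 in heterozygote pools. The ranges lay almost on top of each other (difference -0.036, standard error 0.063, adjusted p = 0.859). Wnt8b, a ligand of the dorsal forebrain, was 5.67, 5.78 and 5.80 in knockout pools, against 5.57, 5.84 and 5.41 in heterozygote pools. The heterozygote values alone covered the whole knockout range, and the difference of 0.14 had an adjusted p of 0.653. It moved with single heterozygote pools, to 0.046 without pool 3 and to 0.26 without pool 2 (unadjusted p = 0.0149, limma). Wnt4, which acts in kidney and gonad formation, had 2 rows: the brighter one, used in the counts above, differed by 0.11 with overlapping groups, and the other differed by 0.16 with every knockout pool higher (unadjusted p = 0.0376). The remaining 10 ligands overlapped between genotypes, with differences from -0.12 for Wnt2b to 0.13 for Wnt7b.

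**Figure D2:**
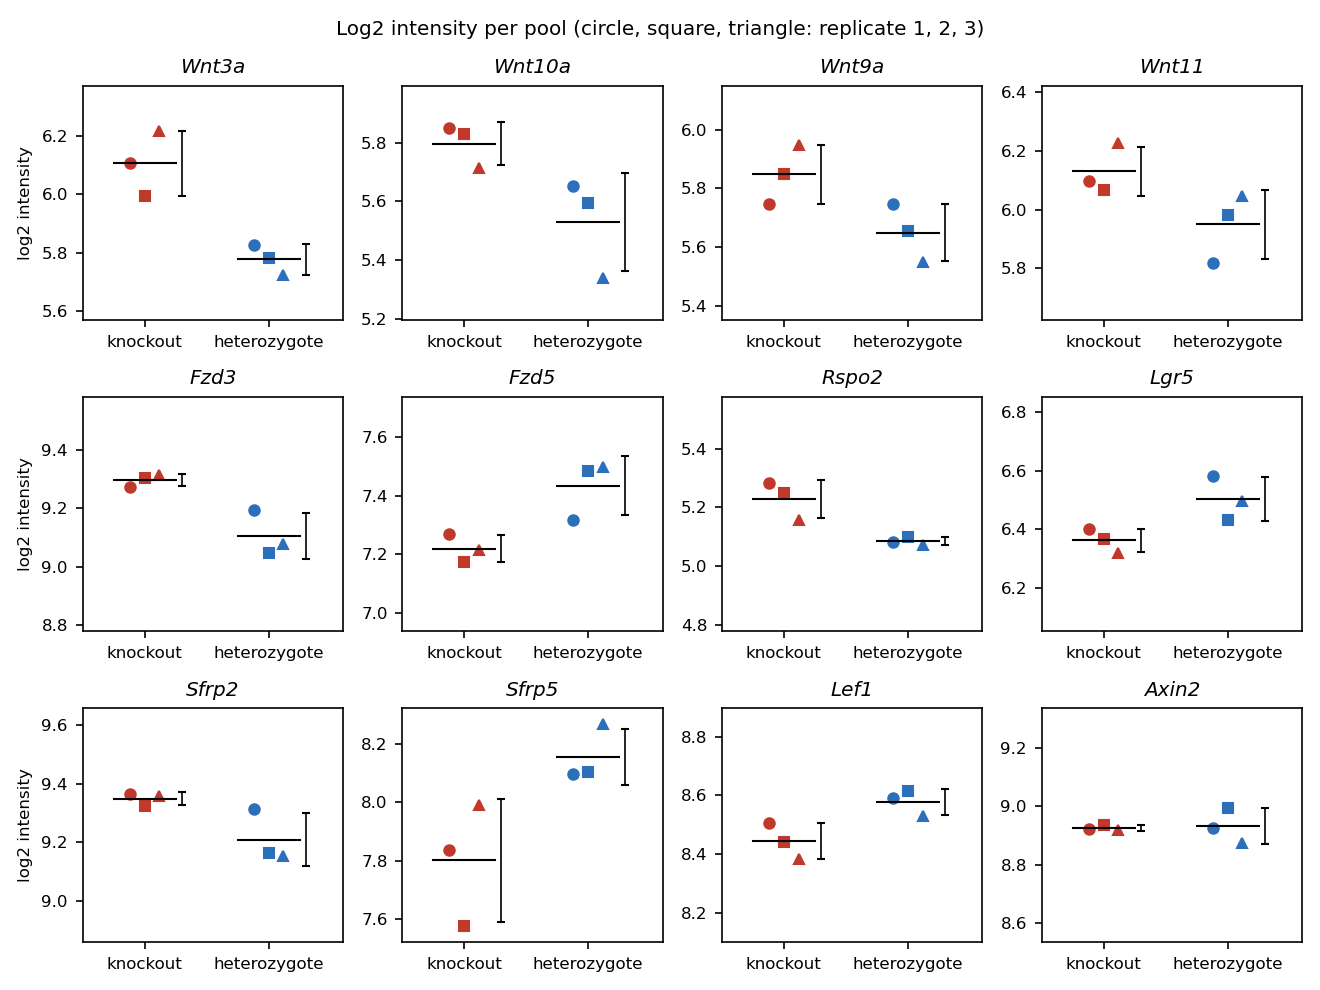
Log2 intensity in each pool for 12 Wnt pathway members, knockout pools left of heterozygote pools, with the vertical axis of each panel set around that gene (lines, means; bars, SD, n = 3 pools each). The Wnt3a pools are higher and the Sfrp5 pools lower in knockout heads without overlap, and the Axin2 pools overlap.

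Ligand secretion showed little difference. Porcn, the enzyme that attaches the lipid to Wnt proteins, was 8.20, 8.08 and 8.09 in knockout pools, against 8.13, 8.05 and 8.14 in heterozygote pools (difference 0.015, adjusted p = 0.949). Porcn is X-linked. Xist, the RNA made by the silenced X chromosome of female cells, was 8.82, 3.74 and 8.91 in knockout pools, against 10.17, 4.22 and 10.08 in heterozygote pools. The Y-linked gene Eif2s3y was 7.89, 8.37 and 7.70 in knockout pools, against 6.59, 8.23 and 6.35 in heterozygote pools. Kdm5d and Uty, also Y-linked, were likewise lowest in heterozygote pools 1 and 3. The pools thus differed in their share of females, and sex was not balanced between the genotypes. The part of sex in the Wnt values was not tested. Wls, which carries the lipid-bearing ligand to the cell surface, differed by -0.031 with overlapping groups.

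Of the 10 Frizzled receptors, 1 on either side of 0 had an unadjusted p under 0.05, where 5.97% of all rows were higher and 4.66% lower. Each had separated groups, where 8.03% of all rows were wholly higher and 9.03% wholly lower. The median difference of the 10 was 0.013. Fzd3, which in the mouse guides axon tracts and closes the neural tube together with Fzd6, was 9.27, 9.30 and 9.31 in knockout pools, against 9.20, 9.05 and 9.08 in heterozygote pools. The knockout pools lay within a narrow band, and the difference was 0.19 (95% confidence interval 0.053 to 0.33, limma adjusted p = 0.407). Fzd3 was also the only member among the brightest 7263 rows that was higher at an unadjusted p under 0.05. Fzd5, a receptor of the eye field and the developing retina, went the other way, with 7.27, 7.17 and 7.22 in knockout pools, against 7.32, 7.48 and 7.50 in heterozygote pools. The means were 7.22 ± 0.047 in knockout pools and 7.43 ± 0.10 in heterozygote pools (SD, n = 3 each), a difference of -0.21 with an interval from -0.37 to -0.059 (adjusted p = 0.407).

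Beside Fzd5, some markers of the anterior neural plate and eye field were lower in every knockout pool as well. Hesx1, a forebrain homeobox gene, was 7.45, 7.60 and 7.62 in knockout pools, against 7.96, 7.96 and 7.93 in heterozygote pools (difference -0.39, adjusted p = 0.356). Rax, an eye field homeobox gene, differed by -0.20 (adjusted p = 0.413), and Six3, which represses Wnt genes in the anterior neural plate, by -0.17 (adjusted p = 0.457). Within the neural ectoderm list the direction was not uniform: 6 of 12 markers were positive and 6 negative. At an unadjusted p under 0.05, 2 were higher (Sox1, Zic1) and 3 lower (Hesx1, Rax, Six3), where 5.97% and 4.66% of all rows were. Every knockout pool was lower for 4, those 3 and Otx2 (difference -0.082, limma adjusted p = 0.60), where 9.03% of all rows were. It was higher for 1, Gbx2 (difference 0.087), where 8.03% of all rows were. Pax6, another eye field factor, was 7.80, 8.07 and 7.93 in knockout pools, against 7.87, 7.71 and 7.78 in heterozygote pools (difference 0.15, adjusted p = 0.556). The part of these cells in the Fzd5 value was not tested.

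The other 8 Frizzled receptors overlapped between the genotypes. Fzd2, a receptor of both Wnt branches, was 10.51, 10.44 and 10.41 in knockout pools, against 10.50, 10.54 and 10.49 in heterozygote pools (difference -0.054, adjusted p = 0.746). Fzd7, which acts together with Fzd2 in tissue closure, was 9.92, 9.77 and 9.80 in knockout pools, against 9.78, 9.76 and 9.78 in heterozygote pools. Knockout pool 1 alone lay clearly above the rest, and the difference was 0.057 (adjusted p = 0.755). Fzd6, the partner of Fzd3 in neural tube closure, differed by 0.038, and Fzd8, known from the anterior neural plate, by -0.0017 with a standard error of 0.13. Of the Lrp co-receptors, Lrp6 was 8.95, 8.87 and 8.89 in knockout pools, against 8.86, 8.86 and 8.84 in heterozygote pools, separated by a gap far smaller than the spread among knockout pools (difference 0.051, adjusted p = 0.75). Lrp5 differed by 0.025 with overlapping groups.

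R-spondins bind Lgr receptors and so clear the ubiquitin ligases Znrf3 and Rnf43, which take Frizzled receptors off the cell surface. Of these 8 genes, 1 on either side of 0 had an unadjusted p under 0.05, where 5.97% of all rows were higher and 4.66% lower. Rspo2, an R-spondin of the limb, lung and craniofacial tissue, was 5.28, 5.25 and 5.16 in knockout pools, against 5.08, 5.10 and 5.07 in heterozygote pools. It lay among the dimmest 7263 rows, and its difference of 0.15 (standard error 0.056, limma adjusted p = 0.434) was 0.10 with quantile and 0.085 with cyclic loess normalization. Lgr5, the receptor that is itself a Wnt target in stem cells, was 6.40, 6.37 and 6.32 in knockout pools, against 6.58, 6.43 and 6.50 in heterozygote pools (difference -0.14, adjusted p = 0.465). Its close relative Lgr4 differed by -0.14 as well, but overlapped (adjusted p = 0.567). The ligases gave -0.020 for Znrf3 and 0.14 for Rnf43, and the 3 remaining R-spondins lay between -0.049 and 0.076, all with overlapping groups.

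The secreted modulators held the largest negative difference of the 57 members. Sfrp5, a decoy that binds Wnt ligands and is known from cardiac progenitors and foregut endoderm of the mouse embryo, was 7.84, 7.58 and 7.99 in knockout pools, against 8.10, 8.10 and 8.27 in heterozygote pools. Every knockout pool was lower, and the knockout pools were spread wider than the heterozygote pools. The means were 7.80 ± 0.21 in knockout pools and 8.15 ± 0.096 in heterozygote pools (SD, n = 3 each), a difference of -0.35 or 1.28-fold lower in knockout pools, with an interval from -0.60 to -0.10 (unadjusted p = 0.0116, limma adjusted p = 0.40). Without knockout pool 2, the lowest of the 3, the difference was -0.24, and without knockout pool 3 it was -0.45. Heart markers were also measured. Of 10, 6 differences were positive and 4 negative, with a median of 0.028, and 3 were lower at an unadjusted p under 0.05, the cardiac transcription factors Tbx5 (-0.30), Gata4 (-0.22) and Hand2 (-0.24), where 4.66% of all rows were. Hand2 alone was lower in every knockout pool, the natriuretic peptide gene Nppa differed by 0.34 with overlapping groups, and the summed intensity of the 10 was 13979 to 14525 in knockout pools against 13839 to 14949 in heterozygote pools. Their part in the Sfrp5 value was not tested.

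Sfrp2, a related decoy of the neural plate, differed in the opposite direction. It was 9.36, 9.32 and 9.36 in knockout pools, against 9.31, 9.16 and 9.15 in heterozygote pools, with heterozygote pool 1 just under the knockout range (difference 0.14, adjusted p = 0.478). Sfrp1, another decoy of the same family, was 10.69, 10.78 and 10.71 in knockout pools, against 10.70, 10.75 and 10.69 in heterozygote pools (difference 0.013, adjusted p = 0.952). Dkk3, a divergent member of the Dickkopf family, differed by -0.017. The Sfrp genes thus spread over both directions.

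The 7 cytoplasmic transducers overlapped between the genotypes without exception. Of these, 0 had an unadjusted p under 0.05, where 5.97% of all rows were higher and 4.66% lower. Ctnnb1, which encodes β-catenin, was 11.31, 11.32 and 11.25 in knockout pools, against 11.29, 11.36 and 11.28 in heterozygote pools. The difference was -0.015 with an interval from -0.14 to 0.11 (adjusted p = 0.94). The destruction complex genes gave 0.049 for Apc, -0.048 for Axin1 and -0.077 for Gsk3b, and the Dishevelled genes, which relay the signal from Frizzled, gave 0.076, 0.066 and 0.0039 for Dvl1, Dvl2 and Dvl3. These are transcript levels, and β-catenin is regulated mainly as a protein.

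All 3 measured nuclear factors had a negative difference, and 1 of them an unadjusted p under 0.05, where 4.66% of all rows were lower. Lef1, which activates targets together with β-catenin, was 8.51, 8.44 and 8.38 in knockout pools, against 8.59, 8.61 and 8.53 in heterozygote pools. The groups did not overlap (difference -0.13, standard error 0.058, limma adjusted p = 0.468). Tcf7l1, mainly a repressor of Wnt targets and needed for forebrain formation in the mouse, was 9.86, 9.74 and 9.65 in knockout pools, against 9.86, 9.96 and 9.89 in heterozygote pools. Knockout pool 1 lay within the heterozygote range (difference -0.15, adjusted p = 0.485). Tcf7l2 differed by -0.0038, with heterozygote pools inside the knockout range. All 3 lay among the bright rows, where lower values in knockout pools were the more frequent ones.

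The feedback targets, which read out canonical signalling, differed little. Axin2 was 8.92, 8.94 and 8.92 in knockout pools, against 8.93, 9.00 and 8.87 in heterozygote pools. The knockout pools lay inside the heterozygote range, and the means were 8.93 ± 0.010 in knockout pools and 8.93 ± 0.061 in heterozygote pools (SD, n = 3 each). The difference was -0.0062 (limma adjusted p = 0.98), and its 95% confidence interval ran from 0.912-fold to 1.09-fold of the heterozygote level. Nkd1, an inhibitor of Dishevelled that Wnt signalling induces, was 8.63, 8.78 and 8.67 in knockout pools, against 8.68, 8.87 and 8.63 in heterozygote pools (difference -0.036, interval 0.861-fold to 1.11-fold, adjusted p = 0.889). A p that misses the threshold does not show equal levels, and the intervals give the sizes that these pools allow.

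**Figure D3:**
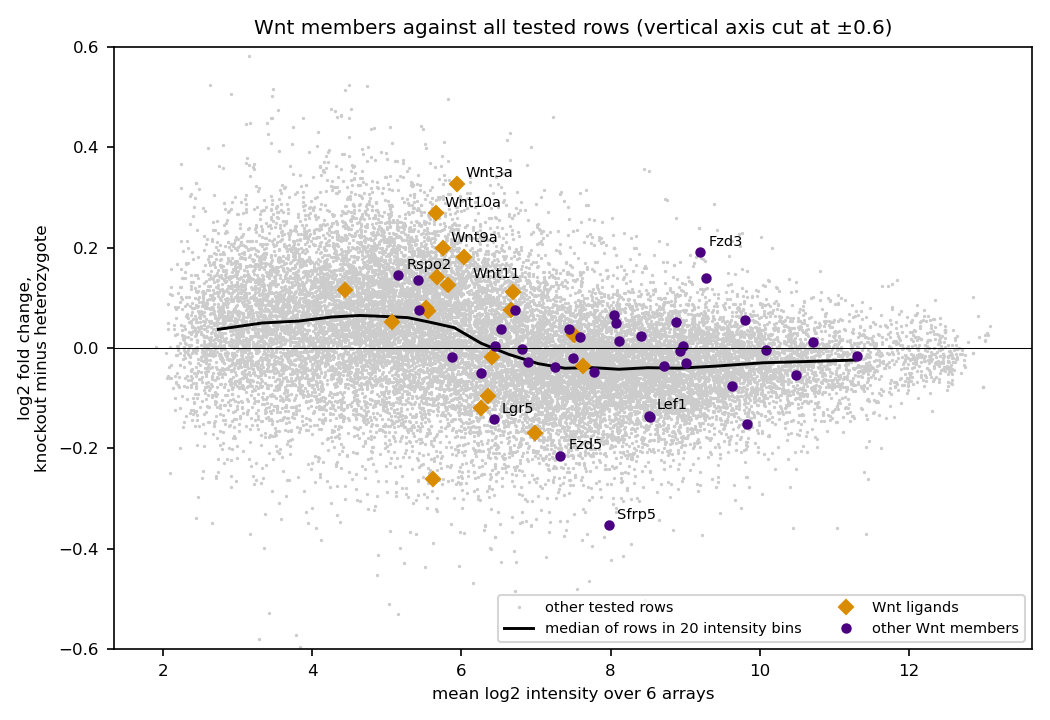
Difference in log2 intensity, knockout minus heterozygote, against mean log2 intensity over the 6 arrays for the tested rows (grey; 15 rows beyond the vertical axis are not drawn), with the Wnt members marked and a line through the medians of 20 intensity bins. The line runs at 0.065 at a log2 intensity of 4.64 and at -0.042 at 8.11, and the ligands lie in its left and middle range.

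Other genes of the pathway were read next, from a list chosen with earlier results of these data known. Of 50 other pathway genes, all measured, an unadjusted p under 0.05 was found for 1 that was higher and for 3 that were lower, where 5.97% of all rows were higher and 4.66% lower, and 0 passed after adjustment. Of the 50, 20 differences were positive and 30 negative, with a median of -0.029. Among the brightest 7263 rows, 5102 differences were negative and the median was -0.035. How far intensity enters the values of the 50 was not tested. Dkk4, a secreted inhibitor of Lrp co-receptors and itself a Wnt target, was 5.36, 5.27 and 5.60 in knockout pools, against 4.96, 5.13 and 5.03 in heterozygote pools (difference 0.37, limma adjusted p = 0.391). Frzb, a secreted decoy of the Sfrp family, differed by -0.19 (adjusted p = 0.419). Cby1, which binds β-catenin and keeps it from TCF/LEF proteins, differed by -0.21 (adjusted p = 0.413), and Tle1, a co-repressor of TCF/LEF proteins, by -0.15 (adjusted p = 0.417).

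Of 20 other genes known as Wnt targets, 18 were measured, and the others were not analysed here. Of these, 4 had an unadjusted p under 0.05, all 4 higher in knockout pools, where 5.97% of all rows were, and 0 passed after adjustment. The median was 0.017, with 9 differences on either side of 0. Because the list was chosen with earlier results of these data known, the 4 cannot be read against that share as a result about Wnt targets. Dkk4 was 1 of the 4, and it lay among the dimmest 7263 rows, of which 10.5% were higher at that threshold. En2, a homeobox gene of the midbrain-hindbrain boundary, was 6.87, 7.17 and 7.14 in knockout pools, against 6.67, 6.78 and 6.64 in heterozygote pools (difference 0.37, adjusted p = 0.388). Pou3f2, a neural POU factor, had 2 rows, of which only the brighter is given. That row was 5.85, 5.81 and 5.94 in knockout pools, against 5.49, 5.50 and 5.59 in heterozygote pools (difference 0.34, adjusted p = 0.356). Tbx6, a T-box gene of the presomitic mesoderm, was 5.85, 5.68 and 5.68 in knockout pools, against 5.54, 5.47 and 5.52 in heterozygote pools (difference 0.23, adjusted p = 0.391). All 4, picked by that p, had every knockout pool higher, where 8.03% of all rows did. Of the 18, Myc alone had every knockout pool lower (difference -0.14, limma adjusted p = 0.497), where 9.03% of all rows did. Axin2 and Nkd1, counted above as members, had overlapping groups.

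**Figure D4:**
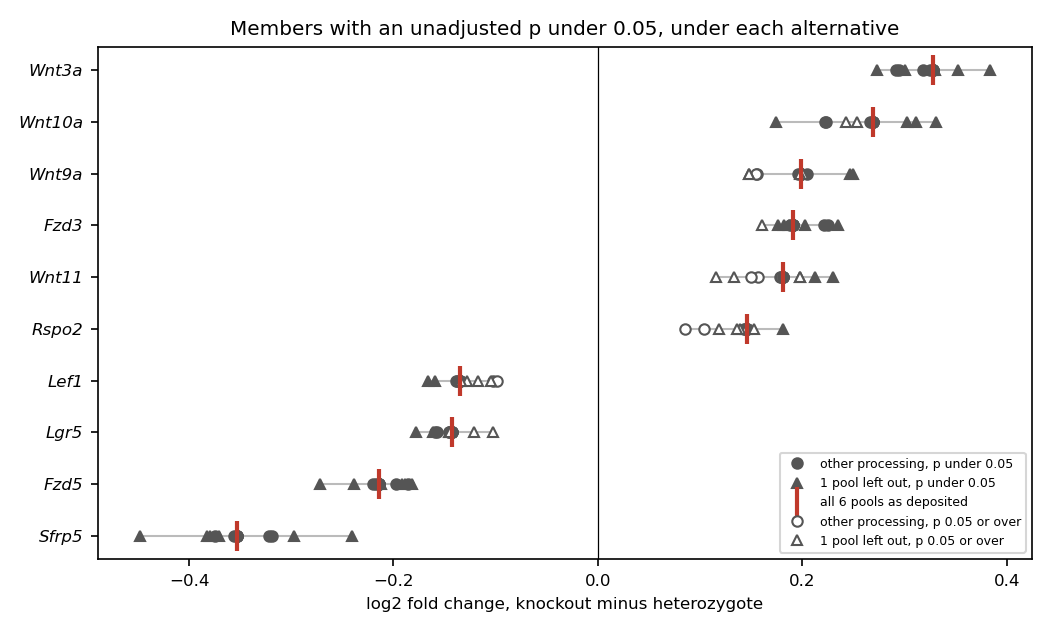
Difference in log2 intensity, knockout minus heterozygote, of the 10 members with an unadjusted p under 0.05, from all 6 pools as deposited (vertical bar) and under each alternative (circles, other processing; triangles, 1 pool left out; open, unadjusted p not under 0.05). Each member stays on its side of 0, and Sfrp5 ranges from -0.45 to -0.24. With 1 pool left out, this could not be otherwise for members whose groups did not overlap (all but Wnt9a).

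The 10 members with an unadjusted p under 0.05 kept their direction in each of 15 alternatives that tested them. Only Wnt3a, Fzd5 and Sfrp5 also kept an unadjusted p under 0.05 in each alternative that tested them, 14 for Wnt3a and 15 for Fzd5 and Sfrp5. Leaving out dim rows dropped Wnt3a, Wnt9a, Wnt10a, Wnt11, Rspo2 and Lgr5. Wnt3a ran from 0.27 to 0.38, Fzd5 from -0.27 to -0.18 and Sfrp5 from -0.45 to -0.24. Over all 57 members, 32 kept their direction throughout, and the smallest adjusted p of any member in any alternative was 0.255 (limma).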

How the data were processed

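RNA of 6 pools of E8.5 heads was measured on Affymetrix mouse Gene ST arrays. The authors made the deposited intensity values, which are linear (2.53 to 11741), by RMA (Affymetrix Power Tools, per the submitters' processing notes). The versions and genome build are not given in the sources used here, and the study's own comparison used Gene Array Analyzer. Array medians were 58.1 to 62.9. The table has no detection calls, and the number of arrays limits the precision.

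Values were converted to log2. Of 35556 rows, the 21789 with a single symbol were tested with limma 3.58.1 (lmFit, eBayes) in R 4.3.3, with no covariate, and checked on simulated data. The 1621 rows with several symbols and the 12146 with none were not tested. Symbols of 21698 rows were matched to RefSeq (GRCm38.p6) and 91 kept the annotation's. Where a gene had several rows, the row with the highest mean was used. Groups and replicate numbers came from the sample titles.

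The Wnt members and all gene lists were chosen with earlier results of these data known. Pool values are given for members with an unadjusted p under 0.05 or separated groups, the 2 highest and 2 lowest differences of the ligands, the Frizzled receptors and the rest, the 3 brightest members, any member spanning over 1 log2 unit within a genotype (0 met this), and Axin2, Lef1, Nkd1, Wnt1, Wnt3a, Wnt8b, Ctnnb1, Porcn and Kdm5b. Hesx1, Sox2, the other named markers and the remaining members were chosen after their values were seen. Alternatives left out dim rows, tested all rows, averaged rows of a gene, used quantile or cyclic loess normalization or median centring, changed the variance model or array weights, added the replicate block, or left out each pool.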

Additional observations from a re-analysis of the deposited data

How the results depend on the processing

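No member passed the adjusted threshold under any of the 15 alternatives. Without rows under the median intensity, 2 of 37 members were higher at an unadjusted p under 0.05, where 2.37% of the rows kept were. By the same threshold 4 were lower, where 10.5% of the rows kept were. Every knockout pool was higher for 3 members, where 3.76% of the rows kept were, and lower for 3, where 15.2% were. With all 35556 rows tested, 5 members passed that threshold as higher, where 5.08% of these rows did. As lower, 2 members passed it, where 3.50% of these rows did. With quantile normalization the median of the members was 0.031. Leaving out 1 pool at a time gave 3 to 5 higher and 2 to 5 lower at an unadjusted p under 0.05. Of all rows, 4.72% to 6.35% were then higher and 2.84% to 4.94% lower. It gave 7 to 14 members wholly higher, where 12.4% to 14.9% of all rows were. Wholly lower were 4 to 10 members, where 12.7% to 16.0% of all rows were. The median of the members ran from -0.011 to 0.038.

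Of 352 values of 24 named members under the alternatives, 340 kept their direction and 12 did not, and these lay near 0. Axin2 was 0.031 with quantile and 0.030 with cyclic loess normalization, where Ctnnb1 was 0.0047 and Nkd1 0.00052. With 1 pool left out, Porcn ran from -0.023 to 0.035, Ctnnb1 from -0.030 to 0.010, Axin2 from -0.035 to 0.025, Nkd1 from -0.084 to 0.034, Wnt1 from -0.080 to 0.0016 and Sfrp1 from -0.015 to 0.032. The cause was not tested.

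With the replicate block, an unadjusted p under 0.05 was found for 4 members that were higher and 3 that were lower. Of all rows, 6.06% were then higher and 3.95% lower, and 0 members passed after adjustment. Deviations of same-numbered pools over the tested rows had r = 0.001, 0.106 and -0.013, against -0.083 to 0.080 for pools of unlike number. The pools numbered 2 also had the lowest Xist value of each genotype. What same-numbered pools share beyond the number was not tested.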

Other observations

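Several Wnt genes lie next to each other in the genome, and 4 such pairs stood among the ligands in the RefSeq gene order. On chromosome 11, Wnt3a and Wnt9a were both positive, at 0.33 and 0.20 on the log2 scale, and in the other pair on that chromosome Wnt9b was 0.080 and Wnt3 was -0.26. On chromosome 1, Wnt10a was 0.27 and its neighbour Wnt6 -0.018. On chromosome 15, Wnt10b was 0.074 and Wnt1 -0.036. All are differences in log2 intensity, knockout minus heterozygote, given as values with no test of the pairs.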
